A study of Mus musculus with 10 samples.

Results

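The 10 genes described here, which build and move melanosomes, were followed through sorted mouse melanoma cells: Rab27a, Rab38, Rab32, Mlph, Myo5a, Hps1, Hps4, Ap3d1, Lyst and Gpnmb. They were taken by name from a deposited table of 34162 gene names, and the estimated counts of each gene's transcript rows were summed. All 10 genes passed the expression filter and are among the 16805 genes tested. RNA was sequenced from C57BL/6:SV129 mice in 4 groups of cells separated by a GFP sort: 3 libraries of metastatic c-Myc-high (GFP+) cells from lymph nodes, 2 of primary c-Myc-high cells from skin, 3 of metastatic c-Myc-low (GFP-) cells from lymph nodes and 2 of primary c-Myc-low cells from skin. The sources used here name neither the tumour-driving alleles, nor the GFP allele, nor the ages of the mice. All groups shared RNA amplification before library preparation. The labels do not say whether replicates are separate animals, and every p-value below reflects the scatter of these libraries alone, which may be technical.

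Melanosomes are lysosome-related organelles in which melanocytes make and store pigment. Their proteins are delivered by sorting machinery: AP-3, whose delta subunit is Ap3d1, selects cargo, and the GTPases Rab32 and Rab38 carry the melanin enzymes and are activated by BLOC-3, a complex of Hps1 and Hps4. Mature melanosomes carry Rab27a, which binds melanophilin (Mlph), which in turn binds the actin motor myosin Va (Myo5a). Loss of any of these last 3 proteins dilutes the coat colour of mice, because pigment stays near the nucleus of the melanocyte. Lyst sets the size of lysosome-related organelles in pigment cells and leukocytes, and Gpnmb is a membrane glycoprotein of melanosomes that macrophages also make.

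Mlph and Rab27a are the members whose RNA passed the test between sites, so the 250 bases before their RefSeq start sites (GRCm38.p6) are shown 5′ to 3′, with CACGTG in capitals. CACGTG is its own reverse complement and is the core element bound by both the Myc and MITF families of factors. The first sequence lies at chr1:90914850-90915099 on the plus strand and runs up to the start of Mlph. The next lies at chr9:73044560-73044809, plus strand, before the Rab27a start nearest to that of the transcript counted in the deposited table. The last lies at chr9:73063898-73064147, plus strand, before a start of Rab27a further inside the gene.
Mlph: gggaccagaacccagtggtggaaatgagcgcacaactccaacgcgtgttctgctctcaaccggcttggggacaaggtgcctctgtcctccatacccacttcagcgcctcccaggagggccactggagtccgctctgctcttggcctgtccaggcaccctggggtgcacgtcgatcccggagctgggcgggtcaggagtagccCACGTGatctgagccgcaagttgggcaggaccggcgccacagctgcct
Rab27a, outer start: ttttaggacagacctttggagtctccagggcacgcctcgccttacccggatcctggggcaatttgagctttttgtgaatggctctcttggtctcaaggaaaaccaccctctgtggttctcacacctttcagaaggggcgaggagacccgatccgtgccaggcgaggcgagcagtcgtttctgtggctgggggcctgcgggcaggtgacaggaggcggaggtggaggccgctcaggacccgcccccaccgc
Rab27a, inner start: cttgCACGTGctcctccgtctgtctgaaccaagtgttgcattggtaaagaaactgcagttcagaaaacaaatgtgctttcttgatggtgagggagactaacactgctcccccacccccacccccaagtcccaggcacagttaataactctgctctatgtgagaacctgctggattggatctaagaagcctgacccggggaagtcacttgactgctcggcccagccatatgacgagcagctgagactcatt
The motif begins at position -48 from the start site of Mlph and at position -246 from the inner start of Rab27a, and these letters do not occur in the window of the outer start. RefSeq windows, each running from 250 bases before to 50 bases after a start, were found for 9 of the 10 genes, 11 windows in all. CACGTG stood in 3 of them, the third being a window of Hps1, where it lies across the start site. Of all 32851 RefSeq mouse windows of this length, 7.15% held it. A related motif, TCATGTG, searched on both strands and not overlapping the first, stood in 1 member window, that of Hps1, and in 3.77% of all windows.

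Melanocyte genes were present in every library, and each library also held RNA of other cells. Levels are in CPM, the count scaled to library size with TMM factors between libraries. The 10 melanocyte lineage markers (Mitf, Sox10, Tyr, Dct and others) were detected in all 10 libraries, and summed to 2800 to 19900 CPM in metastatic libraries, against 610.9 to 2842 CPM in primary libraries. The 12 keratinocyte markers summed to 25.0 to 106.9 CPM in metastatic libraries, where Dsc1 was at 0 in 3 and Ivl at 0 in 4 of 6, against 22730 to 52030 CPM in primary libraries. The 10 leukocyte markers summed to 389.9 to 5545 CPM in metastatic libraries, with Cd48 at 0 in 1, against 35.1 to 151.8 CPM in primary libraries, with Laptm5 and Cd37 at 0 in 1. The macrophage markers ran from 75.7 to 858.2 CPM in metastatic libraries, against 4.30 to 126 CPM in primary libraries, where up to 5 of the 10, among them C1qb, C1qc and Aif1, were at 0. The cytotoxic lymphocyte markers ran from 27.8 to 234.4 CPM in metastatic libraries, against 1.20 to 5.08 CPM in primary libraries, where Gzma and Gzmb were at 0 throughout. In metastatic c-Myc-high replicate 3, 6 of the 8 cytotoxic markers were also at 0, and Il2rb alone held 106 of their 113 CPM. Metastatic c-Myc-high replicates 1 and 3 stood apart with 169400 and 45340 CPM of 10 salivary gland genes, while the other 8 libraries held 11.1 to 756.2 CPM. The total estimated count per library ran from 1603012 to 6844328.

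**Figure D1:**
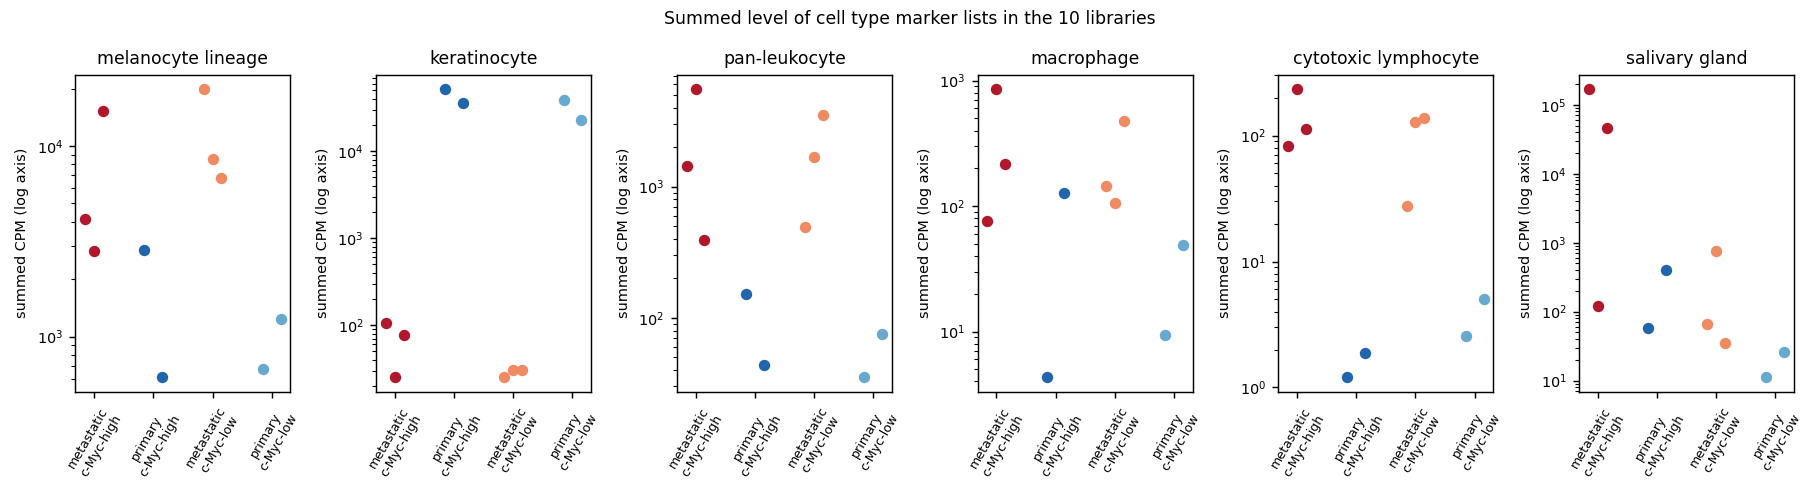
Summed CPM of 6 lists of cell type markers (vertical log axes) in the 10 libraries, each point 1 library, grouped by site and c-Myc class. Keratinocyte sums lie at 22730 CPM or more in all 4 primary libraries and at 106.9 CPM or less in all 6 metastatic libraries, and 2 metastatic c-Myc-high libraries carry 169400 and 45340 CPM of salivary gland transcripts.

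The question of the series design, as its text gives it, is how metastatic and primary c-Myc-high cells differ, and the same contrast was available in c-Myc-low cells. Averaged over both c-Myc classes, Rab27a and Mlph were higher in metastatic than in primary cells, and the other 8 genes did not pass the test. DESeq2 also called Lyst, in a comparison where it called 2590 of 16805 genes higher and 1409 lower. Genes called by edgeR's quasi-likelihood test at a Benjamini-Hochberg adjusted p under 0.05 made up 13.8% of all 16805 genes (8.13% higher, 5.65% lower), against 2 of these 10, both higher. At an unadjusted p under 0.05 stood 4 members, Mlph, Rab27a, Lyst and Gpnmb, all higher, as were 20.3% of all genes, while 10.1% were lower. All 10 estimates were above 0, with a median log2 change of 1.04, while 57.6% of all genes were above 0 with a median of 0.28.

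Rab27a, the GTPase that marks mature melanosomes, had 64.4, 55.2 and 67.8 CPM in metastatic c-Myc-high libraries, against 3.71 and 15.4 CPM in primary c-Myc-high libraries. In c-Myc-low cells it had 167.7, 88.6 and 40.6 CPM in metastatic libraries, against 26.5 and 21.4 CPM in primary libraries. Every metastatic library was above every primary library, a pattern that 5.88% of all genes showed in this direction and 5.13% in the other, and that no other member showed. The site means were 80.7 ± 45.4 CPM in metastatic libraries (SD, n = 6) and 16.7 ± 9.80 CPM in primary libraries (SD, n = 4). The log2 change was 2.43 ± 0.63 (SE), 5.38-fold, with a 95% interval of 1.05 to 3.81 and edgeR's adjusted p = 0.0265. In primary c-Myc-high cells the level rested on estimated counts of 15.4 and 16.5.

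Mlph, the adaptor between Rab27a and the motor, had 179, 60.6 and 483.9 CPM in metastatic c-Myc-high libraries, against 86.9 and 9.33 CPM in primary c-Myc-high libraries. In c-Myc-low cells it had 269.2, 137.7 and 140.7 CPM in metastatic libraries, against 5.98 and 12.1 CPM in primary libraries. The c-Myc-low groups lay far apart, while in c-Myc-high cells primary replicate 1 was above metastatic replicate 2. The site means were 212 ± 150 CPM in metastatic libraries (SD, n = 6) and 28.6 ± 38.9 CPM in primary libraries (SD, n = 4). The log2 change was 3.32 ± 0.81 (SE), 9.99-fold, with a 95% interval of 1.56 to 5.08 and edgeR's adjusted p = 0.0198. The primary levels of Mlph rested on estimated counts of 362 and 10 in c-Myc-high and 49.6 and 41.8 in c-Myc-low libraries.

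Both calls depended on which libraries were included. Without the 2 libraries rich in salivary gland transcripts, the log2 change was 2.27 for Rab27a (adjusted p = 0.0712) and 2.27 for Mlph (adjusted p = 0.0797), so neither passed. Mlph had its highest level in metastatic c-Myc-high replicate 3, which is of that pair. Neither gene passed without primary c-Myc-low replicate 1 (adjusted p = 0.134 for Rab27a and 0.128 for Mlph) or without replicate 2 of that group (adjusted p = 0.129 and 0.0771 for Rab27a and Mlph). Rab27a alone lost its call without primary c-Myc-high replicate 1 (log2 change 1.91, adjusted p = 0.0745), metastatic c-Myc-low replicate 1 (adjusted p = 0.0922) or metastatic c-Myc-low replicate 2 (adjusted p = 0.0752). The summed melanocyte markers were higher in 5 of 6 metastatic libraries than in any primary library, and their part in these 2 changes was not tested. In bulk libraries, fewer cells of a type and less RNA per cell cannot be told apart.

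**Figure D2:**
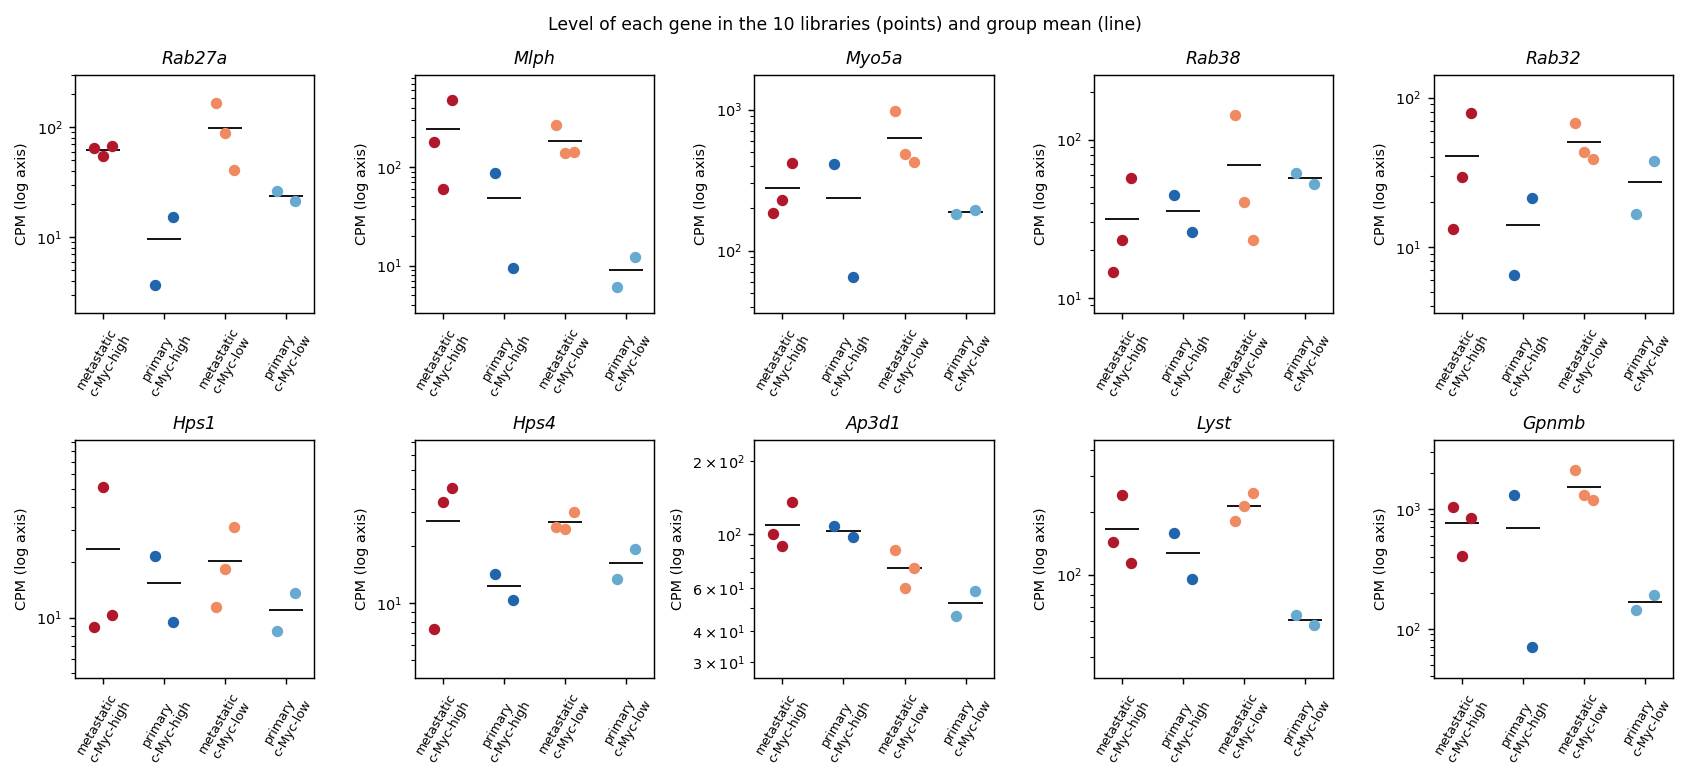
CPM (vertical log axes) of each of the 10 genes in the 10 libraries, each point 1 library and each line a group mean. Rab27a lies between 40.6 and 167.7 CPM in all metastatic libraries, above its 3.71 to 26.5 CPM in primary libraries, while Rab38 overlaps between sites in both c-Myc classes.

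Myo5a, the motor itself, did not pass the test. It had 184.2, 227.2 and 420.3 CPM in metastatic c-Myc-high libraries, against 409.8 and 65.4 CPM in primary c-Myc-high libraries. The c-Myc-low values were 985.7, 484.5 and 426.5 CPM in metastatic libraries, against 181.4 and 195.1 CPM in primary libraries. The groups overlapped in c-Myc-high cells and were apart in c-Myc-low cells, and the mean log2 change of 0.98 ± 0.59 (SE) had an adjusted p of 0.292 and a 95% interval of -0.30 to 2.27.

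Because the 3 proteins act as a chain, their counts were set against each other within each library, where scaling between libraries cancels. These ratios were chosen after the values had been seen, are not corrected for transcript length and serve only to compare libraries. Counts of Mlph were 97.2%, 26.7% and 115% of those of Myo5a in metastatic c-Myc-high libraries, against 21.2% and 14.3% in primary c-Myc-high libraries. Among c-Myc-low cells they were 27.3%, 28.4% and 33.0% in metastatic libraries, against 3.30% and 6.20% in primary libraries. With counts summed over transcripts, the ratio was higher in every metastatic library than in every primary library, by 2.32 on the log2 scale averaged over the classes. The exact two-sided permutation test within c-Myc classes gave p = 0.01, the smallest that its 100 arrangements can give, and an adjusted p of 0.03 over the 3 ratios. Because the ratios were picked from these same values, the permutation p-values of the ratios only describe how far the sites separate. They cannot serve as a test of a site change. The highest shares were in the pair rich in salivary gland transcripts, and without that pair the difference was 1.66 (exact permutation p = 0.0333, the smallest possible there). With 1 library left out at a time it ran from 2.10 to 2.66. The separation of the sites does not hold on the leading transcript of each gene, which leaves out the decay-annotated Myo5a row described below. There Mlph-201 was 104%, 33.0% and 142% of Myo5a-201 in metastatic c-Myc-high libraries, against 43.2% and 30.9% in primary c-Myc-high libraries. For c-Myc-low cells it was 27.9%, 29.5% and 39.5% in metastatic libraries, against 3.58% and 7.34% in primary libraries. Primary c-Myc-high replicate 1 was then above 4 of the 6 metastatic libraries, and the difference was 1.87 (exact permutation p = 0.02).

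Rab27a over Myo5a and Mlph over Rab27a separated the sites less. The first differed by 1.28 between metastatic and primary libraries on the log2 scale (exact permutation p = 0.15, adjusted p = 0.225). Much of that lay in primary c-Myc-high replicate 1, where Rab27a had 0.905% of the count of Myo5a, and without it the difference was 0.105. The second differed by 1.04 (exact permutation p = 0.43, adjusted p = 0.43), and it was 2.36 without primary c-Myc-high replicate 1 (exact permutation p = 0.025) and -0.27 without replicate 2 of that group (exact permutation p = 0.875).

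The cargo-routing GTPases had no change that passed the test. Rab38 had 14.5, 23.2 and 57.4 CPM in metastatic c-Myc-high libraries, against 44.5 and 26.0 CPM in primary c-Myc-high libraries. The c-Myc-low values were 143, 40.3 and 23.1 CPM in metastatic libraries, against 61.7 and 52.2 CPM in primary libraries. The sites overlapped in both classes, and the mean log2 change was 0.05 with a 95% interval of -1.34 to 1.45 (adjusted p = 0.977), which leaves changes in either direction within reach. Its sign was negative under some settings, among them without the pair rich in salivary gland transcripts (-0.23). Rab32, its close relative, ran from 13.2 to 79.2 CPM in metastatic libraries, against 6.52 to 37.5 CPM in primary libraries. The mean log2 change of Rab32 was 1.23 ± 0.68 (SE), with an adjusted p of 0.252.

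Set against the summed melanocyte lineage markers of the same library, Rab38, Myo5a and Ap3d1 had smaller shares in every metastatic than in any primary library, a comparison also chosen after the values had been seen. Rab38 amounted to 0.350%, 0.827% and 0.375% of the melanocyte sum in metastatic c-Myc-high libraries, against 1.56% and 4.25% in primary c-Myc-high libraries. In c-Myc-low cells it amounted to 0.719%, 0.470% and 0.342% in metastatic libraries, against 9.06% and 4.24% in primary libraries. Myo5a amounted to 2.75% to 8.11% of that sum in metastatic libraries, against 10.7% to 26.7% in primary libraries, and Ap3d1 to 0.432% to 3.21%, against 3.81% to 15.9% in primary libraries. For the other 7 members the ranges of the sites overlapped, among them Rab27a (0.443% to 1.97% in metastatic libraries, against 0.130% to 3.89% in primary libraries) and Mlph (1.35% to 4.31%, against 0.879% to 3.06% in primary libraries). The melanocyte sum itself ran from 2800 to 19900 CPM in metastatic libraries, against 610.9 to 2842 CPM in primary libraries. A gene with equal CPM in both sites therefore tends to have a smaller share in metastatic libraries. How many of all genes separate in this way was not counted. The pattern is thus not shown to be particular to Rab38, Myo5a and Ap3d1. Dct and Tyrp1 made up most of the sum in every library. In metastatic c-Myc-high replicate 3 they held 11500 and 1910 of its 15310 CPM. The pattern does not hold against the lineage marker Sox10 alone. Primary c-Myc-high replicate 1 had more Sox10 (294 CPM) than metastatic c-Myc-high replicate 3 (197 CPM), but less Rab38, Myo5a and Ap3d1. No test was made of these shares, and the part of keratinocyte RNA in the primary libraries was not tested.

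The BLOC-3 subunits Hps1 and Hps4, which activate Rab32 and Rab38, had the lowest counts of the members when summed over all libraries. This order did not hold within every group. In primary c-Myc-high cells Rab27a (32 counts) and Rab32 (50) were below Hps4 (71) and Hps1 (100). Neither BLOC-3 subunit passed the test. Hps1 ran from 8.87 to 51.1 CPM in metastatic libraries, against 8.49 to 21.6 CPM in primary libraries, with a mean log2 change of 0.73 and an adjusted p of 0.555. Hps4 ran from 7.29 to 40.1 CPM in metastatic libraries, against 10.4 to 19.3 CPM in primary libraries, with a mean log2 change of 0.91 and an adjusted p of 0.376. In c-Myc-low cells alone Hps4 had 25.2, 24.6 and 30.1 CPM in metastatic libraries, above the 13.4 and 19.3 CPM in primary libraries. Ap3d1, the AP-3 subunit found in all tissues, ran from 60.4 to 135.3 CPM in metastatic libraries, against 46.4 to 108.1 CPM in primary libraries, with a mean log2 change of 0.28 and a 95% interval of -0.67 to 1.22.

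Gpnmb was the most abundant member and varied widely among primary c-Myc-high libraries. It had 1039, 407.8 and 847.9 CPM in metastatic c-Myc-high libraries, against 1315 and 70.01 CPM in primary c-Myc-high libraries. The c-Myc-low values were 2096, 1301 and 1195 CPM in metastatic libraries, against 143.8 and 190.7 CPM in primary libraries. Only the c-Myc-low groups were apart, and the mean log2 change of 1.67 ± 0.73 (SE) had an adjusted p of 0.144. The 2 primary c-Myc-high libraries differ the same way in their melanocyte sums, 2842 CPM in replicate 1 and 610.9 CPM in replicate 2. Without replicate 1 of that group, Gpnmb passed the test.

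Lyst had 143.4, 241.1 and 113.7 CPM in metastatic c-Myc-high libraries, against 159 and 94.99 CPM in primary c-Myc-high libraries. The c-Myc-low values were 180.8, 214.7 and 248 CPM in metastatic libraries, against 63.6 and 57.2 CPM in primary libraries. The c-Myc-low groups were apart and the c-Myc-high groups overlapped, with a mean log2 change of 1.11 ± 0.46 (SE) and an adjusted p of 0.126. The 3 libraries with the most leukocyte marker RNA, metastatic c-Myc-high replicate 2 (5545 CPM), metastatic c-Myc-low replicate 3 (3534 CPM) and metastatic c-Myc-low replicate 2 (1691 CPM), were also the 3 highest for Lyst. The order did not continue below them. Metastatic c-Myc-high replicate 1, next with 1437 CPM of leukocyte markers, had less Lyst than 2 libraries with fewer of them. Those were metastatic c-Myc-low replicate 1 (494.7 CPM of leukocyte markers) and primary c-Myc-high replicate 1 (151.8 CPM). The part of leukocytes in the level of Lyst, and that of macrophages in the level of Gpnmb, was not tested.

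**Figure D3:**
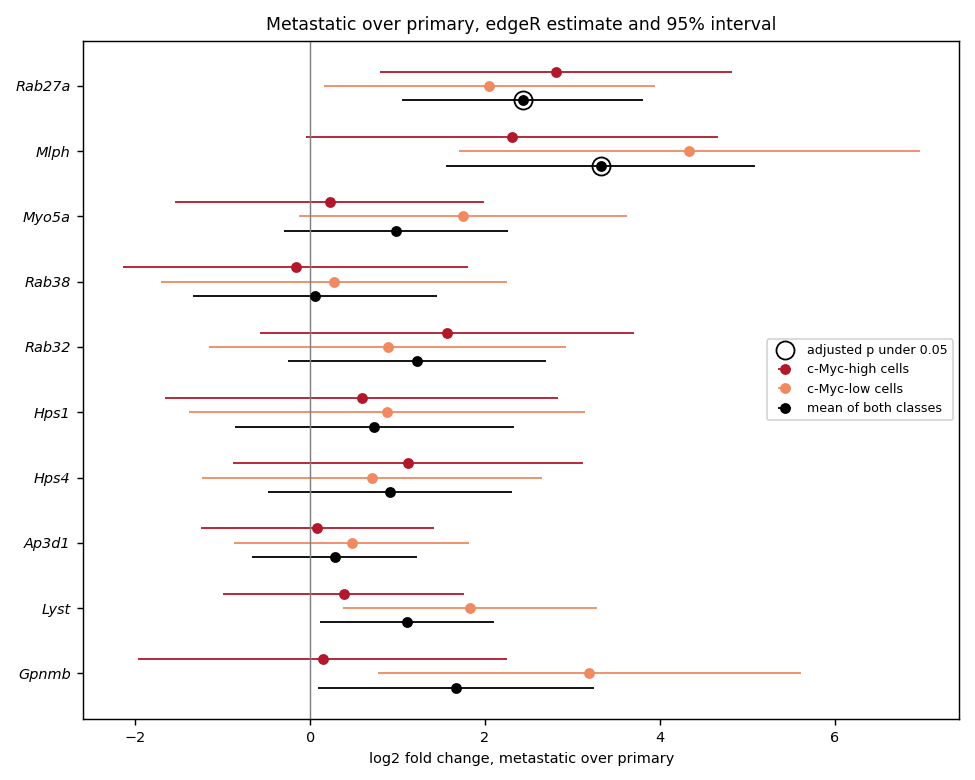
Log2 fold changes of the 10 genes, metastatic over primary (horizontal axis), as edgeR estimates with 95% intervals, in c-Myc-high cells (red), in c-Myc-low cells (orange) and as the mean of both (black). Circles mark the 2 estimates with an adjusted p under 0.05, Rab27a at 2.43 and Mlph at 3.32, both in the mean of the classes.

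Within single c-Myc classes no member passed the test. In c-Myc-high cells edgeR called 3.97% of all genes (1.65% higher, 2.31% lower) and 0 members, with 1 member at an unadjusted p under 0.05, where 16.3% of all genes were higher and 9.96% lower. That was Rab27a, at a log2 change of 2.81 ± 0.92 (SE) and an adjusted p of 0.0968. DESeq2 called Rab27a there, beside 2038 of 16805 genes higher and 1266 lower, while limma-voom called no member (0 genes higher, 166 lower). Rab27a was also the sole member whose metastatic c-Myc-high libraries all lay above the primary ones, as 17.4% of all genes did. The median change of the 10 members there was 0.49, against 0.38 over all genes.

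In c-Myc-low cells edgeR called 2.11% of all genes (0.375% higher, 1.74% lower) and again 0 members. At an unadjusted p under 0.05 stood 4 members, all higher, as were 9.12% of all genes, while 6.03% were lower. DESeq2 called 3 members here, beside 1044 of 16805 genes higher and 664 lower. By limma-voom 5 members were called, beside 2331 of 16805 genes higher and 1611 lower. Metastatic libraries lay above primary ones without overlap for 8 of the 10 members, and for 25.2% of all genes, with 20.1% lower in this way. The 8 were all but Rab38 and Hps1. The largest estimates were 4.33 for Mlph (adjusted p = 0.0948), 3.19 for Gpnmb (adjusted p = 0.177), 2.05 for Rab27a (adjusted p = 0.281) and 1.83 for Lyst (adjusted p = 0.201). The median change of the members was 1.32, against 0.10 over all genes. Both site comparisons use separate libraries, and whether the site change differs between classes was tested directly. By edgeR 0 of 16805 genes passed that test (0%), by limma-voom 0, and by DESeq2 55 above and 30 below 0, none of them a member. No member was at an unadjusted p under 0.05, where 4.74% of all genes were above 0 and 2.1% below. The member with the lowest p was Gpnmb, whose site change differed between the c-Myc classes, high minus low, by a log2 value of -3.05 (95% interval -6.11 to 0.00, adjusted p = 0.724).

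Between the c-Myc classes, high over low, no member passed in either site or in the mean of both. edgeR called 0 of 16805 genes in the mean of both sites (0%), and 0 members were at an unadjusted p under 0.05, where 5.34% of all genes were higher and 7.52% lower. In that mean DESeq2 called 335 genes higher and 176 lower, limma-voom 1 higher, and neither called a member. Within metastatic cells edgeR also called 0%, with 3.05% of all genes higher and 1.76% lower at an unadjusted p under 0.05, and DESeq2 called 71 genes higher and 15 lower. Within primary cells edgeR called 0%, with 4.29% higher and 7.33% lower at that unadjusted p, and DESeq2 called 201 higher and 205 lower. No member was among these genes. Of the 10 estimates, 5 were above 0, with a median of 0.08, against -0.11 over all genes.

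Ap3d1 was the member whose c-Myc classes were apart in both sites together. It had 100.6, 89.8 and 135.3 CPM in metastatic c-Myc-high libraries, against 86.0, 60.4 and 72.5 CPM in metastatic c-Myc-low libraries. In primary cells it had 108.1 and 97.1 CPM in c-Myc-high libraries, against 46.4 and 58.6 CPM in c-Myc-low libraries. Every c-Myc-high library was above every c-Myc-low library, as for 0.399% of all genes, but the log2 change of 0.77 ± 0.43 (SE) had an adjusted p of 0.476 and a 95% interval of -0.17 to 1.71. On RPKM that estimate was -0.01 or -0.04, depending on the pseudocount. RPKM carries no TMM scaling, and its divisor does not follow the total counts. In primary c-Myc-high replicates 1 and 2, Ap3d1 had 108.1 and 97.1 CPM but 5.045 and 1.107 RPKM.

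The other members overlapped between the classes over the 2 sites together. Mlph had the highest estimate, 1.41 ± 0.72 (SE) with an adjusted p of 0.429, and Rab27a the lowest, -1.04 ± 0.59 (SE) with an adjusted p of 0.476. Rab38 and Rab32 were also below 0, at -0.91 and -0.64. In metastatic cells Myo5a and Gpnmb lay lower in every c-Myc-high library than in any c-Myc-low one, as 7.74% of all genes did, and Ap3d1 lay higher, as 3.33% did. In primary cells Rab27a and Rab38 lay lower, and Ap3d1 and Lyst higher, in the c-Myc-high pair than in the c-Myc-low pair. With 2 libraries in each primary group, 30.2% of all genes were lower and 11.3% higher in this way.

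**Figure D4:**
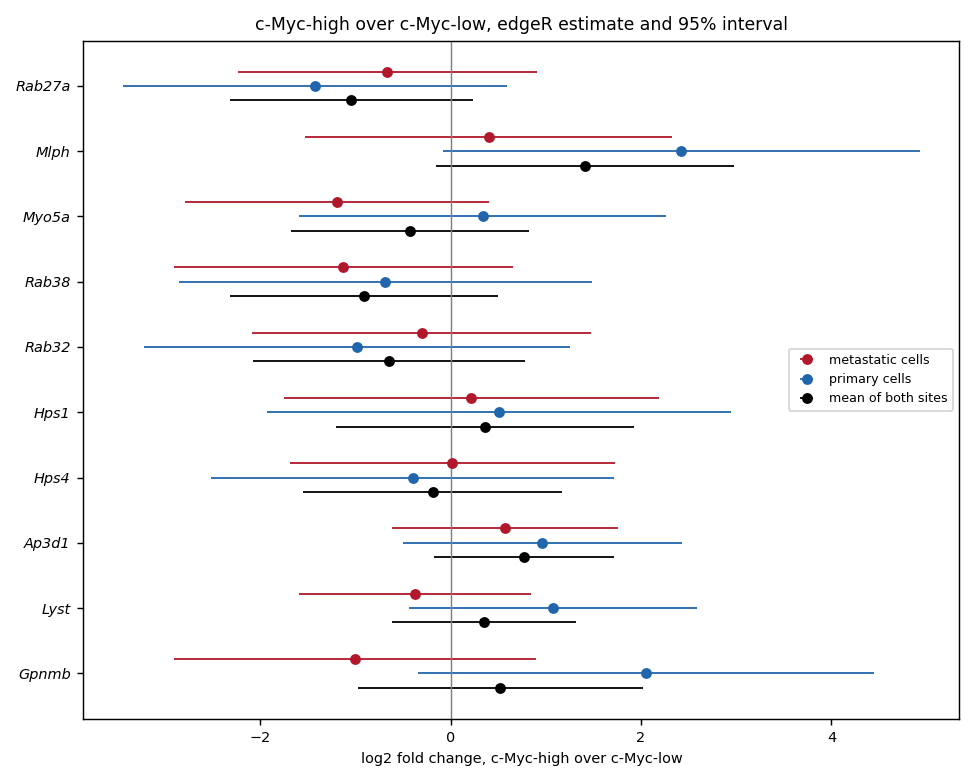
Log2 fold changes of the 10 genes, c-Myc-high over c-Myc-low (horizontal axis), as edgeR estimates with 95% intervals, in metastatic cells (red), in primary cells (blue) and as the mean of both sites (black). No estimate passed the test, and the means run from -1.04 for Rab27a to 1.41 for Mlph.

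Levels were compared between genes on RPKM, which is scaled to transcript length. Gpnmb had the highest group mean in all 4 groups, of 27.4 RPKM in metastatic c-Myc-high, 38.9 RPKM in primary c-Myc-high, 107.1 RPKM in metastatic c-Myc-low and 8.59 RPKM in primary c-Myc-low cells. In primary c-Myc-high cells that mean rests on replicate 1, with 76.7 RPKM in replicate 1 and 0.998 RPKM in replicate 2, where Ap3d1 was higher (1.11 RPKM) and Rab38 close (0.956 RPKM). Within primary c-Myc-low cells its range of 6.41 to 10.8 RPKM overlapped that of Rab38, the next in order (4.53 to 12.0 RPKM). Myo5a was second in the other 3 groups, at 7.47 RPKM in metastatic c-Myc-high, 11.7 RPKM in primary c-Myc-high and 22.1 RPKM in metastatic c-Myc-low cells. The lowest member was Hps1 in both metastatic groups (1.14 RPKM in c-Myc-high and 1.43 RPKM in c-Myc-low cells), Rab27a in primary c-Myc-high cells (0.278 RPKM) and Mlph in primary c-Myc-low cells (0.360 RPKM). In metastatic c-Myc-low cells Rab27a averaged 9.34 RPKM and Mlph 11.7 RPKM, ranks 5 and 4 of the 10.

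The deposited table counts transcripts, and the rows that carry each gene's count differ in kind. The members have 39 rows, 29 of them with a count. Rab27a (chromosome 9, 73044857 to 73097592, 6 exons), Rab38 (chromosome 7, 88430273 to 88491572, 3 exons), Rab32 (chromosome 10, 10545002 to 10558265, 3 exons), Ap3d1 (chromosome 10, 80706956 to 80742264, 31 exons), Lyst (chromosome 13, 13590397 to 13778803, 53 exons) and Gpnmb (chromosome 6, 49036615 to 49058182, 11 exons) each have 1 row, annotated as protein coding. For Mlph, 98.9% lies on protein-coding Mlph-201 (16 exons, chromosome 1, 90915085 to 90951142). For Myo5a, 87.8% lies on protein-coding Myo5a-201 (41 exons, chromosome 9, 75071188 to 75223688). Myo5a-202, annotated as subject to nonsense-mediated decay, took 814.7 of the 1707 counts of Myo5a in primary c-Myc-high replicate 1, 47.7%, against 6.08% or less in every library outside primary c-Myc-high cells and 27.8% in replicate 2 of that group.

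For both BLOC-3 genes most counts lie on rows annotated with a retained intron. Of the count of Hps1, 97.8% is on Hps1-203, a retained-intron transcript (19 exons, chromosome 19, 42755196 to 42779959, minus strand), and 0.293% is on protein-coding rows. Of the count of Hps4, 51.2% is on Hps4-207, a retained-intron transcript of 570 bases in 2 exons (chromosome 5, 112375335 to 112378401, plus strand), 15.5% on a second row of that class and 28.9% on protein-coding rows. The protein-coding share of Hps4 ran from 0% to 50.9% in metastatic libraries and from 3.60% to 48.0% in primary libraries. Hps4-207 overlaps the antisense gene Gm20636 (chromosome 5, 112374369 to 112377639, minus strand), and Hps1 overlaps Gm16244, a processed transcript on the opposite strand. Gm20636 itself has 44.8 and Gm16244 27.8 counts over all libraries. The sources used here do not say whether counting used the strand, and overlap of exons was not checked. Whether these pairs share reads is thus not known, and the values of Hps1 and Hps4 are uncertain. Myo5a overlaps the processed pseudogene Gm16353, which itself has 731.1 counts over all libraries. Rab27a overlaps the processed pseudogene Gm27186, which lies on the same strand. Positions are those of GENCODE on GRCm38.

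**Figure D5:**
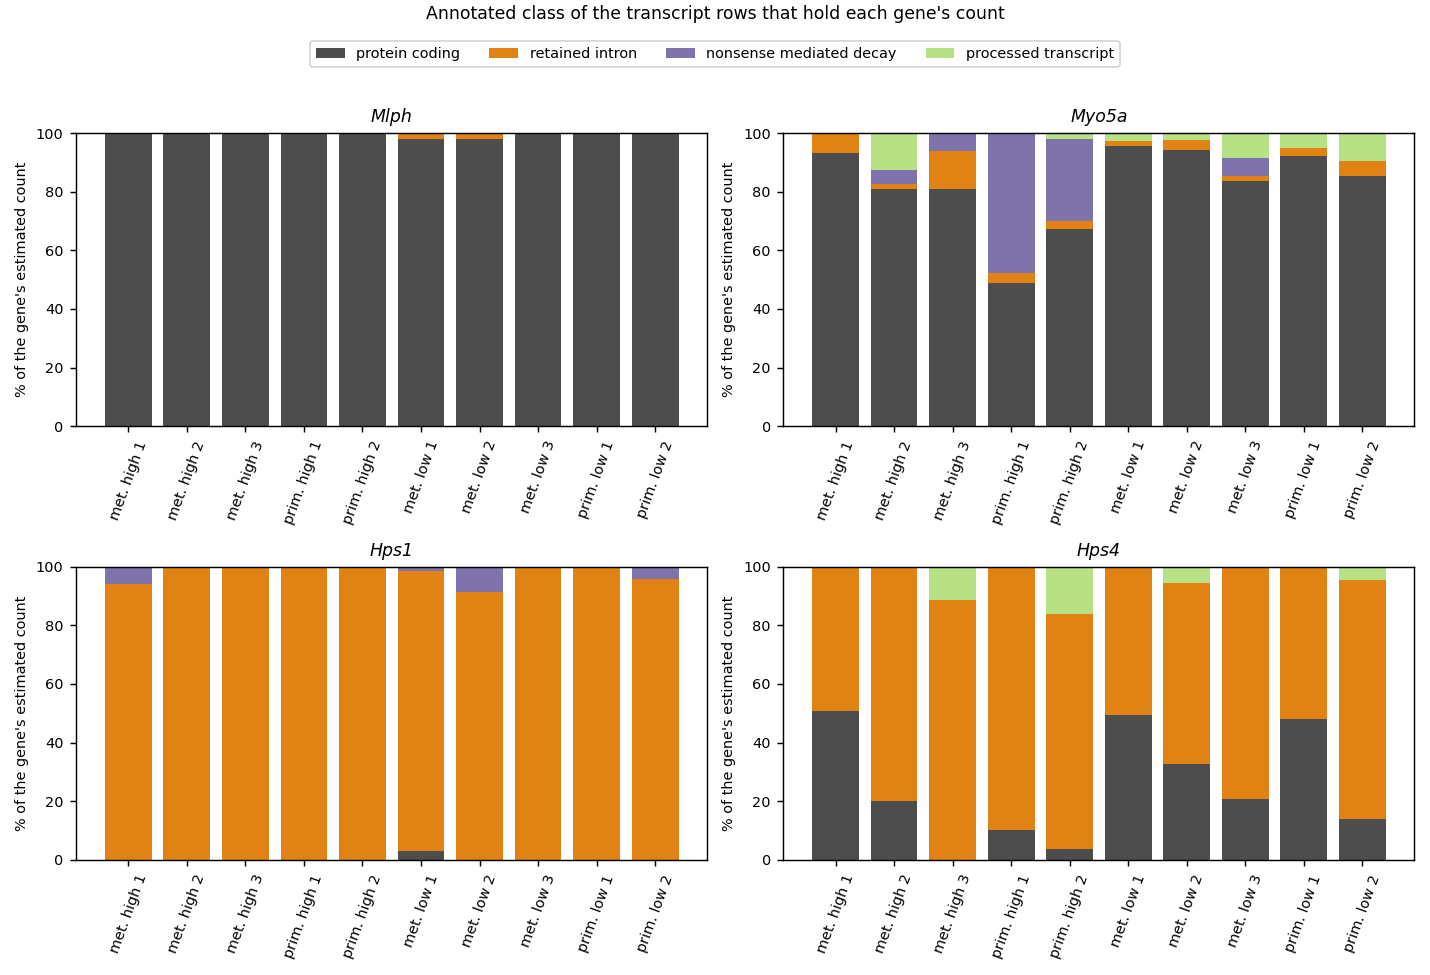
Share of each gene's estimated count (vertical axis, % of the gene's count) on transcript rows of each annotated class, in the 10 libraries, for the 4 members with several rows. Retained-intron rows hold most of Hps1 and Hps4, and a nonsense-mediated decay row holds 47.7% of Myo5a in primary c-Myc-high replicate 1.

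Genes that work beside the members were counted in 3 lists. Of 31 tested subunits and partners of the BLOC, AP-3, AP-1 and HOPS sorting complexes, 1 was higher in metastatic cells in the mean of both classes and 0 lower, with a median log2 change of 0.23, against 0.28 over all genes. Over all genes 8.13% were higher and 5.65% lower in that comparison, and 1 of 31 is a smaller share. That gene was Hps3, a subunit of BLOC-2, with 30.1 to 158 CPM in metastatic libraries, against 0.831 to 18.2 CPM in primary libraries (log2 change 3.82, adjusted p = 0.00699). It also passed in c-Myc-high cells alone (log2 change 5.66, adjusted p = 0.0241), though not there without the pair rich in salivary gland transcripts (adjusted p = 0.0579). Hps3 had only 3.5 and 3 estimated counts in the primary c-Myc-high libraries. In the mean it passed under 16 of 19 alternatives, not on its leading transcript (adjusted p = 0.246), and in c-Myc-high cells under 9 of 20. The next by p were the AP-1 subunits Ap1b1 (log2 change -1.61, adjusted p = 0.0948) and Ap1m1 (2.16, adjusted p = 0.125), which did not pass.

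Of 22 tested motors, Rab GTPases and Rab effectors, 4 were higher and 3 lower in metastatic cells, beside 8.13% and 5.65% of all genes, with a median log2 change of 0.46, against 0.28 over all genes. Sytl2, a Rab27 effector, had 20.9 to 118 CPM in metastatic libraries, against 0.315 to 12.9 CPM in primary libraries (log2 change 4.25, adjusted p = 0.00974). The primary c-Myc-high libraries held only 1.3 and 2.6 estimated counts of Sytl2. Myo7a, an unconventional myosin that moves melanosomes in the retinal pigment epithelium, had 16.0 to 147 CPM in metastatic libraries, against 2.59 to 9.26 CPM in primary libraries (log2 change 3.08, adjusted p = 0.00514). Myo7a also passed in c-Myc-low cells alone (log2 change 3.68, adjusted p = 0.0391). Sytl2 passed under 17 and Myo7a under 16 of 19 alternatives in the mean, and Myo7a under 10 of 20 in c-Myc-low cells. Rab36 and Rab17 were also higher in the mean of both classes (adjusted p = 0.0185 and 0.0382). Rab36 had 0.29 to 14.6 CPM in metastatic libraries, against at most 0.195 CPM in primary libraries. In metastatic c-Myc-high libraries Rab36 had only 1.1, 4 and 7.6 estimated counts (0.29, 0.815 and 3.86 CPM). Rab17 had 0 to 23.6 CPM in metastatic libraries, with 0 in c-Myc-high replicate 2, against at most 0.0594 CPM in primary libraries. Rab36 passed under 12 of 19 alternatives and Rab17 under 4 of 19, and Rab17 had an adjusted p of 1.0 without the pair rich in salivary gland transcripts.

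Of the genes that fell, Exph5 and Sytl1 are Rab27 effectors. Exph5 had 38.7 CPM or less in metastatic libraries, against 46.7 to 195 CPM in primary libraries (adjusted p = 0.0175). Sytl1 had at most 5.92 CPM in metastatic libraries, against 1.24 to 42.7 CPM in primary libraries (log2 change -3.39, adjusted p = 0.0452), and did not pass without the salivary pair (adjusted p = 0.0866). Dynll1, a dynein light chain, had 15.9 to 39.6 CPM in metastatic libraries, against 83.4 to 172 CPM in primary libraries (log2 change -2.24, adjusted p = 0.00986). Dynll1 passed under 15, Exph5 under 16 and Sytl1 under 6 of 19 alternatives. Rab27b, the closest relative of Rab27a, had 0.0532 to 46.8 CPM in metastatic libraries, against 32.9 to 92.6 CPM in primary libraries, and did not pass (adjusted p = 0.107). Keratinocyte markers summed to 22730 to 52030 CPM in the primary libraries, and their part in the levels of these 4 genes was not tested.

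Of 11 tested genes for the contents of melanosomes, 5 were higher and 0 lower in metastatic cells, beside 8.13% and 5.65% of all genes, with a median log2 change of 2.43, against 0.28 over all genes. Pmel, which forms the fibrils of the melanosome, had 146 to 767 CPM in metastatic libraries, against 28.7 to 65.1 CPM in primary libraries (log2 change 2.63, adjusted p = 0.00768), and it also passed in c-Myc-low cells alone (log2 change 3.61, adjusted p = 0.0349). Slc45a2, Tspan10, Dct and Tyrp1 were the others, and the last 2 did not pass without the salivary pair (adjusted p = 0.0965 for Dct and 0.0775 for Tyrp1). Pmel passed under 18 of 19 alternatives, Slc45a2 under 17, Tspan10 under 13, Dct under 9 and Tyrp1 under 8, and Pmel under 11 of 20 in c-Myc-low cells. The lists were put together with earlier results of these data known, so their counts are a description.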

How the data were processed

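The authors deposited 1 table of 92214 transcript rows with estimated counts, unscaled between libraries, and RPKM, which the authors scaled to length and reads. The build mm10 and the tools Bowtie2 and limma are named in the submitters' processing notes, without roles. The sources used here do not say how counts were estimated or whether strand was used.

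Counts were summed by gene name, rounded, filtered with filterByExpr, scaled with TMM and fitted by edgeR (version 4.0.16, under R 4.3.3) (robust quasi-likelihood, 4 groups, 1 shared spread, Benjamini-Hochberg over 16805 genes). CPM values carry TMM scaling. The biological coefficient of variation was 0.876. Alternatives used DESeq2 1.42.0, limma 3.58.1 (voom, and trend on log2 RPKM with a pseudocount of 1 or 0.1), other scaling, filter, transcript, block and library choices. Total counts ran from 1603012 to 6844328, and 3 counts stand for 0.362 to 2.80 CPM.

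The members, gene lists and tests were chosen with earlier results of these data known. Named are all members, list genes that were called (otherwise the 3 with the lowest p in each mean comparison), and transcripts with at least 10% of a gene's count. For likeness the 3 genes with the highest r were found for each member, and only the first is named, for some members. Rab27b and minor transcripts were named after their values were seen. Replicates of a group differed beyond sampling noise (chi-square per degree of freedom 44.7 to 222).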

Additional observations from a re-analysis of the deposited data

How the results depend on the processing

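Of the member calls in the mean of both classes, Mlph passed under 15 of 19 alternatives (log2 change 2.23 to 4.39, adjusted p 7.88e-05 to 0.128) and Rab27a under 11 of 19 (1.66 to 3.08, adjusted p 0.000995 to 0.134). The main count of 2 members became 1 on log2(RPKM + 1), 0 without the 2 salivary-rich libraries, 0 with a replicate block and 0 to 2 with 1 library left out, where a lone primary library is assumed to vary like the other groups. In c-Myc-high cells the site count of 0 became 1 (Rab27a) with DESeq2 and ran from 0 to 1 with 1 library left out. In c-Myc-low cells 0 became 3 with DESeq2, 1 without a filter, 5 with limma-voom and 3 when only the 2 groups were fitted. Of 16805 genes there, edgeR called 63 higher and 292 lower, DESeq2 1044 and 664, and limma-voom 2331 and 1611. Without a filter 285 were higher and 489 lower of 24956 genes, and with only the 2 groups 1160 and 1116 of 16297. The class comparisons gave 0 members under every alternative run. The causes were not tested.

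Replicate numbers are shared between groups, but deviations of same-numbered libraries correlated at -0.33 to 0.147, so the numbers were not taken as pairs. With the replicate block Mlph had a log2 change of 2.89 (adjusted p = 0.0673) and Rab27a 2.62 (adjusted p = 0.0712). Genes called over the whole table fell to 513 higher and 452 lower with the block, against 1367 and 949 without it. With DESeq2 size factors in place of TMM the median change of all genes in c-Myc-high cells was 0.28, against 0.38, and no member call changed.

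Single uncalled values changed sign. For Rab38 the site mean was -0.015 with no filter, -0.55 with limma-voom, -0.025 with the replicate block and -0.23 without the salivary-rich libraries, and its c-Myc-low site change was -0.25 with limma-voom. Site changes in c-Myc-high cells became -0.20 and -0.10 for Myo5a (limma-voom, no salivary-rich libraries), -0.79 for Gpnmb (no salivary-rich libraries) and, for Ap3d1, -0.015 (no filter), -0.019 (replicate block), -0.059 (limma-voom) and -0.26 (no salivary-rich libraries). On RPKM with a pseudocount of 1 or 0.1 the class means became -0.19 and -0.63 for Hps1, -0.011 and -0.044 for Ap3d1, -0.31 and -0.48 for Lyst, and -0.72 and -0.89 for Gpnmb. With the leading transcript that of Hps4 was 0.26. With 1 library left out, site changes in c-Myc-high cells ran from -0.11 to 0.14 for Ap3d1, -0.70 to 3.26 for Gpnmb, -0.78 to 1.10 for Hps1, -0.08 to 0.59 for Lyst, -0.49 to 1.91 for Myo5a and -0.91 to 0.18 for Rab38. That of Rab38 in c-Myc-low cells ran from -0.94 to 0.69. Site means ran from -0.003 to 0.94 for Hps1 and -0.59 to 0.26 for Rab38. Class means ran from -1.03 to 0.97 for Gpnmb, -0.21 to 0.58 for Hps1 and -0.38 to 0.038 for Hps4, and the difference between sites for Gpnmb from -3.82 to 0.17. Mlph over Rab27a, with alternatives chosen after seeing the data, ran from -0.27 to 2.36.

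The total of counted reads limits the low counts most, those of both called members included. Primary c-Myc-high replicate 2 had 1603012 counts, of which 10 fell on Mlph, 10.1 on Hps1, 11.2 on Hps4 and 16.5 on Rab27a. Its sequencing depth is not shown to be lower. Replicate 1 of that group had 5075407 counts, yet Rab27a had 0.277 RPKM there at 15.4 counts and 0.280 RPKM in replicate 2. Intervals cover the spread between 2 or 3 libraries a group, and the amplified reads have no molecular identifiers in the labels.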

Other observations

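Among the genes of the sorting complexes, those with the lowest p between the c-Myc classes (high over low) in the mean of both sites were Hps3 (log2 change -1.64, adjusted p = 0.346), the tetraspanin Cd63 (1.90, adjusted p = 0.363) and the BLOC-1 subunit Snapin (-1.03). None of the 3 passed. In the list of motors and Rab effectors they were Myo7a (-1.67, adjusted p = 0.305), Sytl2 (-1.92, adjusted p = 0.35) and Sytl4 (adjusted p = 0.478), and among melanosome contents Tspan10 (adjusted p = 0.311), Pmel (-0.73, adjusted p = 0.534) and Slc24a5 (-0.94, adjusted p = 0.611), and none passed. Of the 11 genes of melanosome content, 0 had an estimate above 0 for c-Myc-high over c-Myc-low in metastatic cells (median -1.035) and 6 in primary cells (median 0.245). The median over all genes was 0 in metastatic cells and -0.125 in primary cells, and edgeR called 0 genes in either site.

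Over the 10 libraries, the gene most like Gpnmb in log2(CPM + 1) was Sox10, a transcription factor of the melanocyte lineage (Pearson r = 0.979, Spearman rho = 0.964, r = 0.964 without the 2 farthest libraries). For Mlph it was Pip5k1b (r = 0.976, rho = 0.964, 0.947 without those 2) and for Rab27a Pttg1ip (r = 0.966, rho = 0.964, 0.927 without those 2). Of all 10 members, Rab32 had the highest r with another gene, Hist2h2be (r = 0.988, rho = 0.976). The first matches of the remaining members are not given. Among the 45 pairs of members, Pearson r was highest for Mlph and Gpnmb (r = 0.893, rho = 0.685) and for Myo5a and Gpnmb (r = 0.878, rho = 0.842), and lowest for Rab38 and Hps1 (r = -0.303, rho = -0.297). By Spearman rho Myo5a and Gpnmb came first, then Rab32 and Hps4 (rho = 0.758), and Rab38 and Lyst last (rho = -0.43). Within the transport complex, Mlph and Myo5a had r = 0.739 and rho = 0.697, and Rab27a and Mlph r = 0.529 and rho = 0.709. These values are descriptions over libraries that share groups, depth and cell makeup.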
